A study of Mus musculus with 12 samples.

Results

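In the H3K27me3 landscape of WT mouse epidermis, 741 of 6126 autosomal domains (12.1%, 95% interval 11.3 to 12.9%) had no counterpart in the Utx-cKO list. They were selected as WT peaks on chromosomes 1 to 19 that share not even 1 bp with a peak called in Utx-cKO epidermis. The other 5385 autosomal WT domains overlapped at least 1 Utx-cKO peak and serve as the comparison unless another is named. The study mapped trimethylation of histone H3 at lysine 27 by CUT&RUN, in which an antibody-tethered nuclease releases the chromatin around its target, in epidermal cell suspensions of female mice. Utx-cKO animals were Cre+; Utx fl/fl, with Krt14-Cre removing Utx (Kdm6a) from keratin-14 expressing tissue, and WT animals were Cre-; Utx fl/fl, so that both groups carried the floxed alleles and only the recombinase differed. Each genotype had 3 H3K27me3 and 3 IgG libraries, and the age of the animals is not given in the sources used here. Cells in the suspension that never expressed the recombinase keep Utx, and their share was not measured.

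H3K27me3 is deposited by Polycomb repressive complex 2 and marks genes that a cell keeps silent, often regulators of other lineages. Utx belongs to the enzymes that remove it. In skin, Polycomb repression is known to restrain premature differentiation and Merkel cell genes in epidermal progenitors. The 741 domains were chosen by the comparison of the lists itself, and their number is therefore a description and not a test.

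The peak calls pool the 3 animals of a genotype, so no value below has a replicate error, and no p-value was computed. Sequencing depth is unknown. The intervals given for shares and medians cover counting error only, and neighbouring domains are not independent. Of 10 keratinocyte markers fixed for a check of the tissue, among them Krt5, Krt14, Krt1, Krt10 and Trp63, 0 carried a peak in Utx-cKO and 0 in WT. Of 14 markers of melanocytes, T cells, Langerhans cells, fibroblasts and endothelium, 9 carried a peak in each list, the same 9 in both, and none of the markers of either kind touched one of the 741 domains. A missing repressive mark is only a weak check of a tissue. Positions refer to mm10 (GRCm38).

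The promoters below show a small part of the strongest of these domains among those that held a listed start of a coding gene. They are the RefSeq promoters (GRCm38.p6, 250 bases before to 50 after a start) of genes whose start lies in the 741 domains, 1 start for each domain in order of its total signal, down to Chrna7, with the outer start of Nr2f1 added for contrast. Total signal is the coverage summed over a peak on the authors' scale. Capitals mark the dinucleotide CG, which reads the same on both strands and is dense in the CpG islands where Polycomb complexes often sit in mammals. Nr2f1 has a pair of starts in the table: the inner one lies in a WT domain and the outer one lies between a pair of such domains. Vmn1r235 is a vomeronasal receptor gene, Zfp811 a zinc finger gene, Upb1 an enzyme gene of pyrimidine breakdown, and Chrna7 encodes the alpha 7 nicotinic acetylcholine receptor.
Nr2f1 inner start, chr13:78196400-78196699, minus strand: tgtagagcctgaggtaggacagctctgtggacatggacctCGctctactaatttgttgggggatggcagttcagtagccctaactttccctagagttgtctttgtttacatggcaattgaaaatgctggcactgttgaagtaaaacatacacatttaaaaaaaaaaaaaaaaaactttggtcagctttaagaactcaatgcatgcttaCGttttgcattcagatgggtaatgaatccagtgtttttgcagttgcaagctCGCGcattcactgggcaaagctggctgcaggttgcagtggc
Nr2f1 outer start, chr13:78198824-78199123, minus strand: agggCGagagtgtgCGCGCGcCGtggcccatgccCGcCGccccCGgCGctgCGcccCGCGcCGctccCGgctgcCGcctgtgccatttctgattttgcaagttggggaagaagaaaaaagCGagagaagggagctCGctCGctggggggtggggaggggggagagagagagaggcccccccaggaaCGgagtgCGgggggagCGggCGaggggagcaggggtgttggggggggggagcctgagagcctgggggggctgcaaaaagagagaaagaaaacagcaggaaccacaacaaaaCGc
Vmn1r235, chr17:21260177-21260476, plus strand: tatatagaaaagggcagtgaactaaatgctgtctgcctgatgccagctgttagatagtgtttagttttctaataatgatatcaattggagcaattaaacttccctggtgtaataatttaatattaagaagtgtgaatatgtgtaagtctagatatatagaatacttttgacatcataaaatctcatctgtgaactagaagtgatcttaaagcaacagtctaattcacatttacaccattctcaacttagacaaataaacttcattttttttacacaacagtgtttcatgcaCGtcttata
Zfp811, chr17:32809882-32810181, minus strand: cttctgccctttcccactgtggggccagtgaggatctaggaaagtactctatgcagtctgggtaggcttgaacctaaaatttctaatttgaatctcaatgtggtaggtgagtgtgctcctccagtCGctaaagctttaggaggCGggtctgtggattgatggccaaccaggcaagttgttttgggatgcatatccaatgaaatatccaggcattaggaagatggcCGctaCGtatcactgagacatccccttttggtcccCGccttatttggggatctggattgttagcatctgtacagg
Upb1, chr10:75406661-75406960, plus strand: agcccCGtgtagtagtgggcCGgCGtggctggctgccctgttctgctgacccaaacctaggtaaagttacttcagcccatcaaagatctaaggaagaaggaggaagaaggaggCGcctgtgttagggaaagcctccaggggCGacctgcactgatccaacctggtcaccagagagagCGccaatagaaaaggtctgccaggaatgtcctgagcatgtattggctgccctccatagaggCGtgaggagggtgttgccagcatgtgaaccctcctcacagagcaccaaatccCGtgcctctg
Chrna7, chr7:63212477-63212776, minus strand: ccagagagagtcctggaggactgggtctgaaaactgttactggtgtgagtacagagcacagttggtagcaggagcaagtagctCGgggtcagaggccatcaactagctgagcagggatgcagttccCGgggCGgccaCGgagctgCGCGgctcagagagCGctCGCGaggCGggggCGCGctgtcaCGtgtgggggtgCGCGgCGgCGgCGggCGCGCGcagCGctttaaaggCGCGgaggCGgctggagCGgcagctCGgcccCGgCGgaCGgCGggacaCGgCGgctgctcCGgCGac
The counts of CG in these windows were 4 at the inner and 23 at the outer Nr2f1 start, 1 at Vmn1r235, 5 at Zfp811, 8 at Upb1 and 35 at Chrna7. The Chrna7 and outer Nr2f1 promoters are thus CG-rich, and the Vmn1r235 promoter has almost none. Of all 20085 autosomal coding promoters in the table, 91.5% had no more CG than Chrna7 and 27.5% no more than the inner Nr2f1 start.

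Most of these domains were weak members of the WT list. Ranked by total signal among all WT peaks, they had a median percentile of 17.2 (95% interval 15.9 to 18.7), against 54.5 (53.3 to 55.7) for WT domains with a Utx-cKO peak. The median rank was 6479 of 7826. By total signal, 238 (32.1%) fell into the lowest 10 percent of the WT list and 499 (67.3%) into the lowest 25 percent, against 397 (7.37%) and 1084 (20.1%) of the domains with a counterpart. Only 33 (4.45%) stood above the middle of the list, against 2940 (54.6%), and 2 (0.27%) stood above percentile 75, against 1474 (27.4%). Both of those 2 lie at Nr2f1. Together the 741 domains covered 12.4 Mb, which is 9.83% of the autosomal length covered in WT, and held 4.94% of its total signal.

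The domains were of middling width and low. Their median width was 16350 bp (16000 to 16800 bp; extremes 3600 and 39200 bp), against 16900 bp (16550 to 17200 bp; extremes 3100 and 248950 bp) with a counterpart. None was 40 kb wide or more, which allows a share of up to 0.497%, against 460 (8.54%) of the domains with a counterpart. A wider domain has more bases that can meet a Utx-cKO peak, so the rule itself bears on width. Its part in these widths was not tested. Their median maximum signal was 9.34 (9.08 to 9.60), against 18.7 (18.2 to 19.2), and their median signal per base was 2.94 (2.88 to 3.01), against 5.05 (4.97 to 5.14). By maximum signal 17 (2.29%) stood above percentile 75 of the WT list, against 1906 (35.4%).

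**Figure D1:**
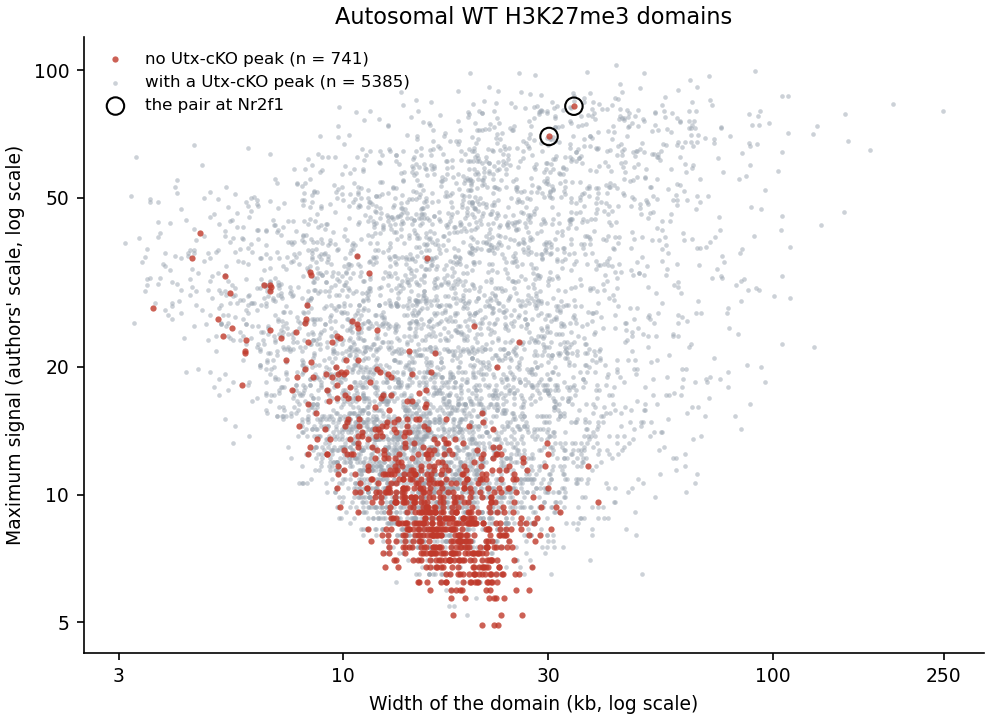
Width (kb) and maximum signal (authors' scale) of each autosomal WT domain, both axes on a log scale, with the 741 domains that have no Utx-cKO peak in red and the 5385 with one in grey. The red points lie mostly along the lower edge of the cloud, with a median maximum of 9.34 against 18.7, and the circled pair at Nr2f1 lies far above them.

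The share of domains without a counterpart was lower at higher WT signal. The autosomal WT domains were divided by total signal into 10 classes of equal size, class 1 being the weakest. The share was 37.9% (34.0 to 41.9%) in class 1, 22.4% (19.1 to 25.9%) in class 3, 10.3% (7.99 to 13%) in class 5 and 1.47% (0.673 to 2.77%) in class 7. Class 9 held none among 613 domains, which allows up to 0.6%, and class 10 held the Nr2f1 pair (0.326%, 0.0395 to 1.17%). Ordered by signal per base, the share began higher, at 54.9% (50.9 to 58.9%) in class 1, and was 0.489% (0.101 to 1.42%) in class 10.

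Among weak domains, the wider and therefore flatter ones more often lacked a counterpart. Within classes 1 to 3 by total signal, the share was 11.1% (8.39 to 14.3%) among domains under 10 kb and 23.9% (21 to 27%) from 10 kb to under 15 kb. It was 49.4% (44.9 to 53.9%) from 15 kb to under 20 kb and 83.1% (72.3 to 91.0%) at 20 kb or more, where 59 of 71 domains had no Utx-cKO peak. Over all signal levels this order broke at the wide end: 19.9% (17.9 to 22.0%) from 15 kb to under 20 kb, 17.3% (14.8 to 20.1%) from 20 kb to under 25 kb and 3.91% (2.75 to 5.37%) from 25 kb to under 40 kb. The lowest total signal listed was 35753 in Utx-cKO and 40307 in WT, and the weakest of the 741 domains stood at that WT value. The scale was not given and may differ between the lists, so these lowest values cannot be compared with each other. The part that nearness to such a limit plays in the set was not tested.

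**Figure D2:**
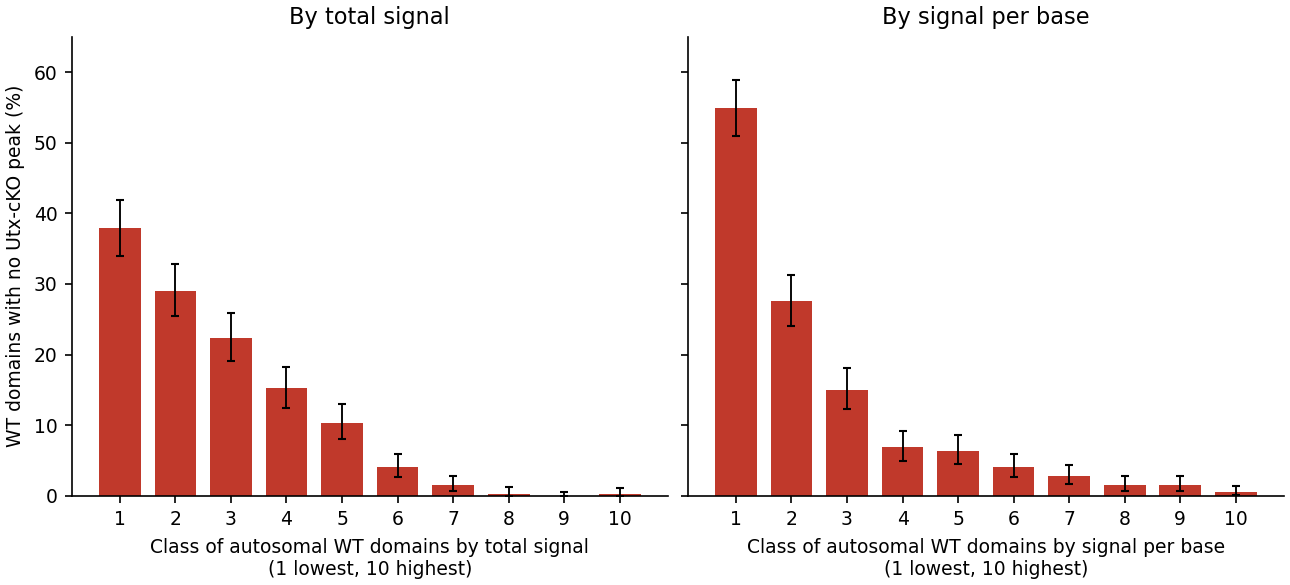
Share (%) of autosomal WT domains with no Utx-cKO peak, in 10 classes of equal size by total signal (left) and by signal per base (right), class 1 being the lowest. Bars give the share and lines its exact 95% interval, and the share goes down from 37.9% to 0.326% on the left and from 54.9% to 0.489% on the right.

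No autosome stood apart in its share. It was highest on chromosome 14, with 39 of 250 domains (15.6%, 11.3 to 20.7%), and lowest on chromosome 19, with 16 of 181 (8.84%, 5.14 to 14.0%). The intervals of all 19 autosomes held the overall 12.1%. Within chromosomes, 565 of the domains stood alone between WT domains that had a counterpart, and 176 were in 84 runs of 2 or more neighbours. The number of runs that a share of 12.1% would give by itself is not given here, so these counts do not show grouping. The longest run held 4 domains over 645 kb of chromosome 12 (102936151 to 103581100), around Unc79, a subunit of a sodium leak channel complex, Fam181a and Ppp4r4. Their percentiles ran from 1.92 to 41.9.

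The next Utx-cKO peak lay at a median distance, edge to edge, of 33.05 kb (27.2 to 36.9 kb), with an interquartile range of 11.2 to 117 kb. It lay within 1 kb for 41 domains (5.53%), within 10 kb for 171 (23.1%) and within 50 kb for 442 (59.6%). For 211 (28.5%) it was farther than 100 kb, and for 13 (1.75%) farther than 1000 kb. A Utx-cKO peak lay within 50 kb on both sides of 131 domains (17.7%, 15 to 20.6%). As a measure of peak spacing, the next WT peak lay at a median of 44.65 kb from these domains. From domains with a counterpart it lay at 26.25 kb. It was within 50 kb for 395 (53.3%) of the domains without and 3397 (63.1%) of those with a counterpart.

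The nearest Utx-cKO peak was in most cases part of a domain that WT had as well. It overlapped another WT peak for 537 of the 741 (72.5%, 69.1 to 75.7%), and was a peak called in Utx-cKO alone for 204 (27.5%, 24.3 to 30.9%). Of all 7033 autosomal Utx-cKO peaks, 1583 (22.5%, 21.5 to 23.5%) overlapped no WT peak. Another WT peak lay within 10 kb of 141 domains (19%, 16.3 to 22%), against 1553 (28.8%, 27.6 to 30.1%) of the domains with a counterpart.

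**Figure D3:**
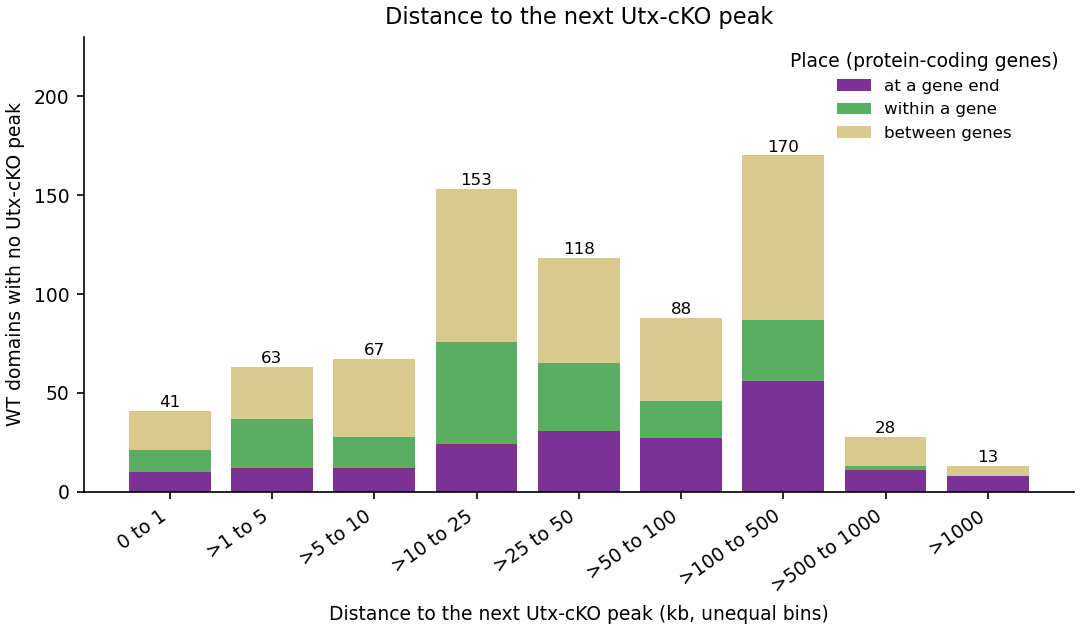
Number of the 741 WT domains by distance (kb, unequal bins) to the next Utx-cKO peak, with colours for their place relative to protein-coding genes. The bin over 10 to 25 kb holds 153 domains, that over 100 to 500 kb holds 170, and 13 lie beyond 1000 kb.

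Domains close to a Utx-cKO peak and domains far from one had similar median ranks, and their places differed. The 171 within 10 kb had a median total-signal percentile of 19.6 and a median width of 16150 bp. The 211 beyond 100 kb had 17.1 and 16400 bp. A protein-coding gene end lay within 2 kb of 75 of the far ones (35.5%, 29.1 to 42.4%), against 34 of the near ones (19.9%, 14.2 to 26.7%). The near ones lay within a gene more often, in 52 cases (30.4%, 23.6 to 37.9%), against 33 of the far ones (15.6%, 11 to 21.3%).

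The 7 domains closest to the limit of the rule abutted or nearly abutted a Utx-cKO peak. A distance of 0 was found for 4 of them, at Il19, an interleukin of the IL-10 family (chromosome 1, 130926901 to 130937000, percentile 12.5), at Tmem72 (chromosome 6, 116705051 to 116728550, percentile 45.2) and at Pou2af1, a B cell coactivator (chromosome 9, 51208001 to 51227600, percentile 35), and 5.0 kb from Lrrc55 (chromosome 2, 85203751 to 85217500, percentile 8.08). A distance of 50 bp was found for the other three, within Cacna1e, a calcium channel subunit (chromosome 1, 154807801 to 154824050, percentile 20.8), at Dpysl2 and Pnma2 (chromosome 14, 66885601 to 66907300, percentile 20.5), and within St8sia2, a sialyltransferase gene (chromosome 7, 73975701 to 73994300, percentile 11.2). On the other side of the limit, the WT domains that shared the fewest bases with a Utx-cKO peak had 300 bp (nearest gene Irf8), 350 bp (within Wdfy4), 400 bp (nearest gene Oacyl), 500 bp (nearest gene Mdh1) and 750 bp (nearest gene Akr1c14) in common with it. The 7 just inside the limit stood at percentiles 8.08 to 45.2, and these 5 just outside at 2.29 to 32.7.

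Taken over all signal levels, the domains lay between protein-coding genes more often than other WT domains and at gene ends less often. A domain was placed at a gene end when a border of a protein-coding gene lay in it or within 2 kb of it. That was so for 191 (25.8%, 22.7 to 29.1%), against 2448 (45.5%, 44.1 to 46.8%) of the domains with a counterpart. Within genes lay 190 (25.6%, 22.5 to 28.9%), against 1028 (19.1%, 18 to 20.2%), and between genes 360 (48.6%, 44.9 to 52.2%), against 1909 (35.5%, 34.2 to 36.7%). No annotated gene of any kind was touched by 225 (30.4%, 27.1 to 33.8%), against 1247 (23.2%, 22 to 24.3%). Between coding genes but on a long noncoding RNA gene were 126 (17%, 14.4 to 19.9%), against 699 (13%, 12.1 to 13.9%).

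The gap at gene ends was narrower among domains of similar total signal. In class 1 a gene end was present in 25% (19.6 to 31.1%) of domains without a counterpart, against 33.4% (28.7 to 38.4%) of those with one. In class 2 the shares were 25.8% (19.6 to 32.9%) without and 33.1% (28.7 to 37.7%) with a counterpart, and in class 3 they were 24.8% (17.8 to 32.9%) and 28.8% (24.8 to 33.1%). In class 4 they were 26.9% (18.2 to 37.1%) and 32.1% (28.1 to 36.3%), and in class 5 they were 23.8% (14.0 to 36.2%) and 34.7% (30.7 to 38.9%). The share without a counterpart was the lower one in each of classes 1 to 5. The intervals of the sets overlapped in each, which is not a test of their difference. Between genes lay 47.8% without and 42.4% with a counterpart in class 1, and 54.0% and 41.3% in class 5. The shares between genes were 47.8% and 44.6% in class 2, 51.8% and 48.2% in class 3, and 45.2% and 45.0% in class 4. Their intervals overlapped in each class as well. At the same class the domains without a counterpart were the wider ones, with medians of 14675 to 21000 bp over classes 1 to 5, against 11300 to 15050 bp.

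**Figure D4:**
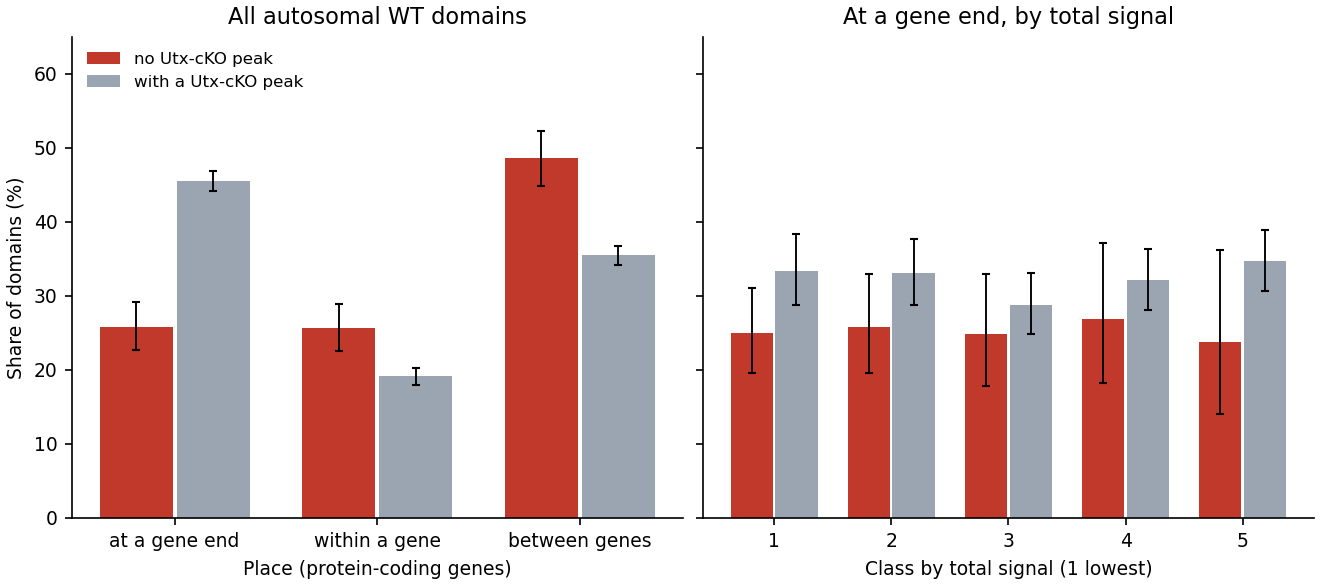
Left, share (%) of autosomal WT domains at a protein-coding gene end, within a gene and between genes, for the 741 domains without a Utx-cKO peak (red) and the 5385 with one (grey). Right, the share at a gene end in classes 1 to 5 by total signal; lines are exact 95% intervals, and the red bars are lower, at 23.8 to 26.9% against 28.8 to 34.7%.

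Gene starts under these domains held fewer CG than those of all coding genes. Outside chromosome 18, where no starts were used, the start of a coding gene lay in 77 of 717 domains (10.7%, 8.57 to 13.2%). With a counterpart it was 1224 of 5202 (23.5%, 22.4 to 24.7%). By class of total signal the shares lay closer, at 8.52% without and 7.73% with a counterpart in class 1. In classes 2 to 4 they were 9.09 to 11.5% without and 11.9 to 12.6% with one, and in class 5 they were 16.7% and 12.5%. Starts were known for 309 of the 386 coding genes that the 717 domains touched (80.1%). The 89 promoters concerned, of 81 genes, had a median of 7 CG (5 to 9) in 300 bases, against 14 (13 to 14) over all autosomal coding promoters in the table. At least 10 CG were found in 32 of them (36%, 26.1 to 46.8%), against 57.9% (57.2 to 58.6%) of all 20085. Promoters in domains with a counterpart stood between these values by median and near all promoters by share, with a median of 11 CG (11 to 12) and at least 10 CG in 880 of 1556 (56.6%). A check against that set is void under the minimum coverage set for it, which the 78.5% of its genes with a known start missed narrowly and the 80.1% above passed narrowly, so the values are given side by side. The CG values are not matched for signal, and some of the 89 windows, as at Pcdh9, overlap each other.

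The strongest exception was Nr2f1 (Gene ID 13865), which encodes an orphan nuclear receptor, COUP-TFI, needed for the patterning of the developing brain. A pair of WT domains flanked its outer start (chromosome 13, gene at 78188971 to 78198873, minus strand). The first covered most of the gene and a border of its neighbour Fam172a (78163951 to 78198400). It was 34450 bp wide, with a total signal of 985203 and a maximum of 82.3, and stood at rank 48 of 7826. The second lay upstream of the gene (78201701 to 78231850), with a total signal of 501387 and a maximum of 69.8, at rank 241. They were 3300 bp apart, and the gap held the CG-rich outer start, 473 bp from the first domain and 2828 bp from the second, while the CG-poor inner start lay 1951 bp inside the first.

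No Utx-cKO peak was listed near Nr2f1. The next lay 1.78 Mb away on the side of lower coordinates and 3.21 Mb away on the other, so that the pair sat in a stretch of 5.055 Mb without a Utx-cKO peak in the list as analysed here. The Utx-cKO peak nearest to it (76380301 to 76384150) overlapped no WT peak and stood at percentile 15 of its list. The next WT peaks on both sides of the pair (76035951 to 76055900 and 81433701 to 81453300) overlapped Utx-cKO peaks. Of the other 739 domains the strongest stood at percentile 70.2. With pooled lists, whether every animal showed this cannot be told, and a row missing from a list would look the same.

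**Figure D5:**
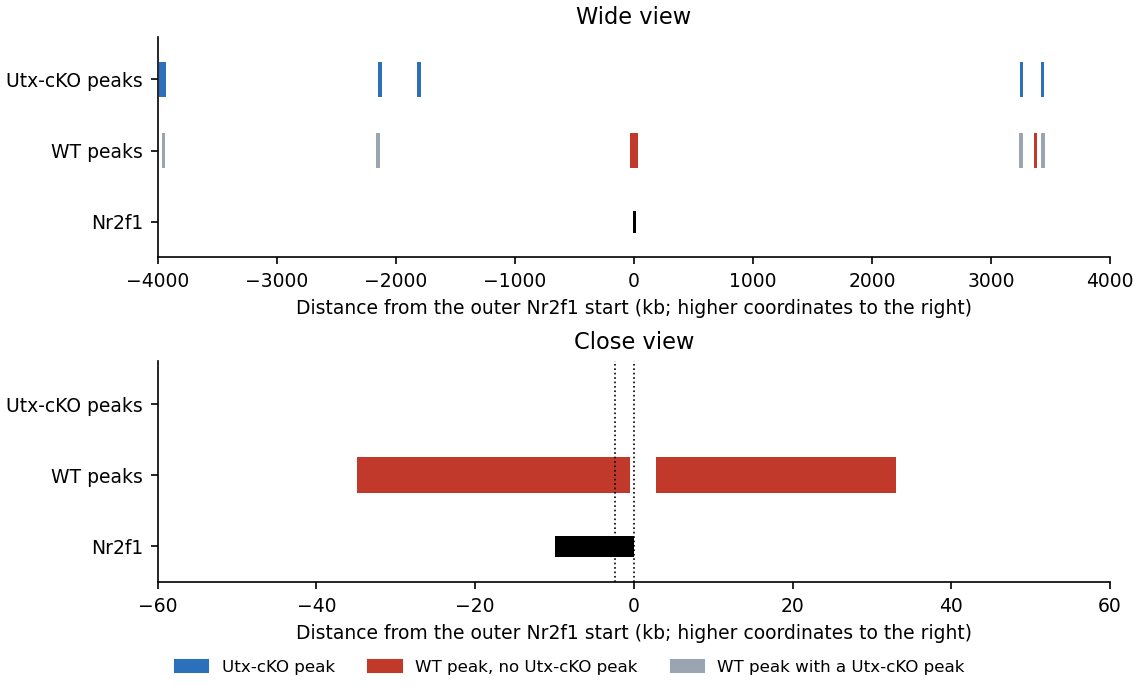
Utx-cKO peaks (blue), WT peaks (red without and grey with a Utx-cKO peak) and the Nr2f1 gene (black), by distance in kb from its outer start, in a wide view with a minimum drawn width and a close view to scale. The WT pair lies on both sides of the outer start, the dotted lines mark both starts, and the nearest Utx-cKO peak is 1.78 Mb from the pair.

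After that pair, the strongest domains lay at a mixed set of genes. The third by total signal was also the widest, a flat block of 39200 bp between genes on chromosome 13 (47378151 to 47417350, percentile 70.2, maximum 9.60), 130.16 kb from Rnf144b, a ubiquitin ligase gene, and 9.05 kb from a Utx-cKO peak. The fourth covered the neighbouring vomeronasal receptor genes Vmn1r235 and Vmn1r236 (chromosome 17, 21250851 to 21288100, percentile 69.6). The fifth lay at the zinc finger genes Zfp811 and Zfp871 (chromosome 17, 32790201 to 32810400, percentile 65.6), with a maximum of 24.9 and the next Utx-cKO peak 37.55 kb away. The sixth lay at an end of Ttll1, a tubulin polyglutamylase gene (chromosome 15, 83474601 to 83499800, percentile 65.6).

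Numbers 7 to 15 stood at percentiles 64.8 to 57.8. They lay 68.3 kb from Spdl1 (chromosome 11, 34901951 to 34929600), within Parvb, a focal adhesion gene (chromosome 15, 84275551 to 84305550), and 53.1 kb from Opa1 (chromosome 16, 29716251 to 29738600). Next came the start of Upb1 (chromosome 10, 75389251 to 75412000), an end of Capn8, a calpain protease gene (chromosome 1, 182616201 to 182645750), and an end of Xkr9 (chromosome 1, 13666601 to 13696400). The last 3 lay within Plxna4, a semaphorin receptor gene (chromosome 6, 32324651 to 32356600), next to Pde10a, a phosphodiesterase gene (chromosome 17, 8500901 to 8524850), and within Dcdc2a (chromosome 13, 25103701 to 25135050). Of the 15 strongest domains, 8 were at a gene end, 3 within a gene and 4 between genes. Apart from the Nr2f1 pair, each of these 15 had a Utx-cKO peak within 73.35 kb.

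The widest domains, 9 of 30000 to 39200 bp with a tie at the lower value, included 7 of the 15 strongest. Of the other two, one tied with the Parvb domain at 30000 bp and lay 220.55 kb from Tbc1d22a (chromosome 15, 86719051 to 86749050, percentile 54.6). The other lay between genes on chromosome 2 (133322051 to 133352450, percentile 53.1), 199.7 kb from Bmp2, a bone morphogenetic protein gene, and 6.35 kb from a Utx-cKO peak. The Dcdc2a and Plxna4 domains reached maxima of only 9.34 and 9.08. Among the 15 strongest, maxima above the median of 18.7 for domains with a counterpart were found in the Nr2f1 pair and in the Zfp811 and Upb1 domains, the last with 19.98.

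The domains most remote from any Utx-cKO peak were, apart from the Nr2f1 pair, over 1000 kb from other WT peaks as well. The farthest covered both listed starts of Pcdh9, a protocadherin of neural tissue (chromosome 14, 93883501 to 93895800), 5096 kb from the next Utx-cKO peak and 4956 kb from the next WT peak, at percentile 6.13. The second touched the neighbours Dydc1 and Dydc2 (chromosome 14, 41068601 to 41087700, percentile 41.1), 3896 kb from a Utx-cKO peak. The third lay 15.4 kb from Ccng1, the cyclin G1 gene (chromosome 11, 40770751 to 40787200, percentile 5.89), at 2677 kb. The fourth lay at the start of Slitrk3, a synaptic adhesion gene (chromosome 3, 73049501 to 73057700, percentile 42.9), with a maximum of 26.0 and 2499.9 kb to the next Utx-cKO peak. The fifth was a narrow peak of 4450 bp next to Naaladl2 (chromosome 3, 25144301 to 25148750), at percentile 14.3 by total signal and 83.8 by maximum, 2216 kb from a Utx-cKO peak. The eighth lay 8.61 kb from Tbck (chromosome 3, 132850301 to 132872250, percentile 39.8), at 1356 kb, and the Nr2f1 pair filled the places between.

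At the level of genes, 397 of 20665 autosomal protein-coding genes (1.92%, 1.74 to 2.12%) were touched by one of the domains, taken as a domain inside the gene or up to 2 kb outside. A WT domain with a counterpart touched 3107 genes (15%). Of the 397 genes, 210 (52.9%, 47.9 to 57.9%) also had a Utx-cKO peak elsewhere in the gene or within 2 kb, and 187 (47.1%, 42.1 to 52.1%) had none. The 397 genes were long, with a median length of 84.5 kb (interquartile range 26.3 to 248 kb), against 29.8 kb for genes with a counterpart domain alone and 17.5 kb for all autosomal coding genes. A longer gene offers more room for a domain, and the part of length in the counts below was not tested.

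Across 19 gene lists, 41 of 1137 autosomal genes (3.61%) had one of the domains, beside 1.92% of all coding genes, and 511 (44.9%) had a WT domain with a counterpart. Regulators of other lineages were touched about as often as all coding genes. Of 166 developmental transcription factors 4 (2.41%) were touched, while 146 (88.0%) had a domain that Utx-cKO shared. Besides Nr2f1 these were Foxp2, a factor of brain and lung (percentile 19.9), Runx2, the bone factor (16.7), and Hnf4a, the liver and gut factor (8.47). The Foxp2, Runx2 and Hnf4a domains lay inside the gene bodies, and Foxp2 and Runx2 had a Utx-cKO peak elsewhere. Of 41 Hox and Evx genes 0 were touched, and 29 (70.7%) had a shared domain. The same held for 50 Wnt pathway genes, with 0 touched and 15 with a shared domain.

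Other signalling lists gave few cases, though at shares above the 1.92% of all coding genes. Among 40 BMP and TGF-beta genes 2 (5.0%) were touched, namely Bmpr1b, a type I BMP receptor, at the border on the start side of the gene (chromosome 3, 142169401 to 142182350, percentile 25.1), and Fstl4 (20.2). Fgf7, the keratinocyte growth factor, was touched by a domain that held its start (chromosome 2, 126030751 to 126046650, percentile 11.9), and the gene had no Utx-cKO peak.

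Among 60 genes of epidermal differentiation and barrier the share touched was near the 1.92% of all coding genes, with 1 gene (1.67%), Prdm1, a transcriptional repressor known from epidermal and immune cells, by a domain at percentile 1.0 inside the gene (chromosome 10, 44461851 to 44471600), 1.20 kb from a Utx-cKO peak. Of 23 basal keratinocyte genes 0 were touched. Of 44 hair follicle and sebaceous gland genes 2 (4.55%) were, the neighbouring follicle keratins Krt72 and Krt73, whose starts both lay in 1 domain (chromosome 15, 101786451 to 101806950) with a low maximum of 7.27 and 140.25 kb to the next Utx-cKO peak. Of 74 immune and inflammatory genes 1 (1.35%) was, Il19, described above. Of 34 melanocyte, fibroblast and endothelial genes and 20 AP-1 and cell cycle inhibitor genes 0 were, and neither was any of 18 autosomal housekeeping genes.

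Of the 19 lists, the axon guidance, receptor and channel lists had the highest shares. Axon guidance and cadherin genes had 8 of 85 (9.41%), transmitter receptors 7 of 90 (7.78%) and ion channels 7 of 128 (5.47%), beside the 1.92% of all coding genes. These genes are also long, with median lengths of 148, 54.9 and 55.2 kb, against 17.5 kb for all autosomal coding genes. A shared domain was found at 39 (45.9%), 41 (45.6%) and 70 (54.7%) genes of the same lists, beside 15% of all coding genes.

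In the axon guidance list the strongest domains lay in Plxna4 (percentiles 59.0 and 29.8), in Slit3 (53.0) and Slit1 (40.3), ligands that repel growing axons, and in Ntn1, the netrin 1 gene (23.5). The Slit1 domain lay 100 bp from a Utx-cKO peak and the Slit3 domain 3.0 kb from one. Of the 8 genes 1 had no Utx-cKO peak, Pcdh9, described above. Among the receptors, Chrna7 led with a domain over its CG-rich start (chromosome 7, 63201201 to 63226900, percentile 56.1, maximum 22.8), 435 kb from the next Utx-cKO peak, and the gene had no Utx-cKO peak at all. Htr2a, a serotonin receptor (36), and Grik4, a kainate receptor subunit (17.4), had a Utx-cKO peak elsewhere, and Grm4, a metabotropic glutamate receptor (11), had none. In all 4 of the 7 receptor genes had no Utx-cKO peak.

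Among the channels the strongest domains lay at Kcnip1, a potassium channel modulator (percentile 42.7), in Cacna1b, the N-type calcium channel (rank 4694), at Kcnk3, a background potassium channel (25.2), and in Cacna1e (20.8). Of these 7 channel genes 1 had no Utx-cKO peak, chosen for mention after its value was seen: Scn2a, a neuronal sodium channel, with 1 of 2 listed starts in the domain (chromosome 2, 65655701 to 65672900, percentile 18). Of 86 collagen and matrix protease genes 4 (4.65%) were touched, Col4a3 (35), Adamts12 (25.5 and 14.6), Col24a1 (23.8 and 23.6) and Col25a1 (22.2), and of these Adamts12 had no Utx-cKO peak. Imprinted genes had 1 of 55 (1.82%), Mkrn3, the Polycomb and COMPASS list 1 of 46 (2.17%), Yaf2, a subunit of variant Polycomb complexes, and retinoid and nuclear receptor genes 1 of 50 (2.0%), Esr2, the estrogen receptor beta gene. Their percentiles were 28.3, 18.1 and 1.99.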

How the data were processed

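CUT&RUN signal of H3K27me3 was analysed from 2 deposited peak lists, 1 per genotype, which per the file headers are SEACR calls (spelled SECAR there) on data merged from all samples of a group. Each line holds a peak's position and its total and maximum signal, the peak caller's score as deposited. Scale, normalization and caller settings were not given in the sources used here. Signals were ranked only within a list. The submitters' processing notes name the builds mm10, GRCm38 and sacCer3, and as tools deepTools, bedtools (2.27.1), SAMtools (1.9) and Bowtie2 (2.3.4.3). Values per animal and IgG values were not analysed here.

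Overlaps, distances, gene places (RefSeq GRCm38.p6, windows of 2 kb) and exact 95% intervals (Clopper-Pearson for shares, order statistics for medians) were computed with Python 3.11.15, NumPy 2.4.6, pandas 2.3.3 and SciPy 1.17.1, and the functions were checked on simulated peaks. The annotation gives no exons. Alternatives changed the overlap, the lists and the gene window. The domains and gene lists were chosen with earlier results of these data known. Named domains are the 15 strongest, 8 widest, 8 farthest from and 5 nearest to a Utx-cKO peak (ties in width or distance are all named), and up to 4 genes per list by total signal. An item that this rule selects is not reported here. With 1 list per genotype no test was run.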

Additional observations from a re-analysis of the deposited data

How the results depend on the processing

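The median percentile was 16.4 to 25.7 in every alternative that used the whole WT list. Requiring Utx-cKO peaks to cover 50% of a WT peak gave 1095 domains (17.9% of autosomal WT domains), a median percentile of 25.7, a median distance of 11.7 kb and 30.6% at a gene end. The 354 added domains overlap a Utx-cKO peak and stand at a distance of 0, so that median is lower by construction. Extending Utx-cKO peaks by 5 kb left 639 (10.4%, 43.5 kb), by its construction without the nearest ones. Keeping the 6126 strongest autosomal Utx-cKO peaks, as many as in WT, added 256 domains (16.3%, 42.3 kb). Merging peaks within 5 kb gave 681 (percentile 16.4, 36.5 kb). The upper 50% of the WT list kept 33 domains (1.11%, percentile 54.6, 16.7 kb, 33.3% at a gene end), by its construction without the weak ones. A window of 5 kb placed 31.3% at a gene end. Gene starts alone, within 2 kb, placed 118 of 717 (16.5%), against 1725 of 5202 (33.2%) with a counterpart. Both of these counts leave out chromosome 18 and genes without a listed start, so they are not on the footing of the gene-end shares. No paired analysis was possible because each list pools its animals and no test was run. For the same reason no replicate could be left out.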

Other observations

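Some gene families, chosen for mention after the data were seen, were counted for the WT domains without a Utx-cKO peak. Of 1104 autosomal olfactory receptor genes 5 (0.453%) had one in the gene or within 2 kb, of 352 vomeronasal receptor genes 2 (0.568%), of 388 Zfp zinc finger genes 7 (1.8%) and of 362 solute carrier genes 14 (3.87%), beside 1.92% of all autosomal coding genes. A WT domain with a counterpart was found at 39 (3.53%), 3 (0.852%), 33 (8.51%) and 80 (22.1%) of the same genes. The 2 vomeronasal receptor genes share 1 domain. The hairpins of 4 microRNA genes lay in the domains, namely Mir6348, Mir3105, Mir6241 and Mir802, at percentiles 50.2, 13.6, 20.9 and 4.67 of the WT list and 0.25 to 11.25 kb from a Utx-cKO peak. How many hairpins lay in other WT domains is not given here, so these 4 are a list of places only.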
